A study of Mus musculus with 26 samples.

Results

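Epithelial and mesenchymal identity was followed through 10 genes in mouse pluripotent, germline and fibroblast cells: the cadherins Cdh1 and Cdh2, the epithelial surface and junction genes Epcam and Ocln, the epithelial splicing regulator Esrp1, the transcription factors Zeb1, Zeb2, Snai1 and Snai2, and the intermediate filament gene Vim. Every probe named for one of these genes on the bead array was taken, which gave 13 probes for 8 of the 10 genes among 25697 probes in all. Cdh2 had 4 probes, Zeb2 and Snai1 had 2 each, and the other genes 1 each. Epcam and Snai2 were not analysed here, because no probe carried either name. A probe was tested when its detection p was under 0.01 on at least 2 arrays, and 11 of the 13 probes (8 genes) and 14517 of all probes were tested. The second Zeb2 probe was detected on 0 of 26 arrays, with normalised log2 signals of 4.17 to 4.37. The second Snai1 probe was detected on 1 array, a MEF array at 5.96, while the other MEF array stood at 5.30 and the remaining arrays between 4.22 and 4.83.

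E-cadherin, the product of Cdh1, joins neighbouring epithelial cells at adherens junctions, and N-cadherin, the product of Cdh2, does so in mesenchymal and neural cells. In an epithelial-to-mesenchymal transition (EMT), transcription factors of the Snail and Zeb families repress Cdh1 and other junction genes through E-box sequences, Cdh2 and the filament protein vimentin rise, and Esrp1-dependent splicing is lost. The reverse, a mesenchymal-to-epithelial transition, is known as an early step when mouse fibroblasts are reprogrammed to induced pluripotent stem cells. Mouse embryonic stem cells grow as compact colonies held together by E-cadherin.

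The series comprised 13 mouse lines, all of strain OG2, whose cells carry a fluorescent reporter driven by Oct4 regulatory sequence, and each line was measured on 2 arrays that the labels call biological replicates. The non-pluripotent cells were mouse embryonic fibroblasts (MEF), 1 line, and germline stem cells (GSC), cultured from testis germ cells, with 1 neonatal line labelled day 10 and 1 adult line labelled day 40. The pluripotent cells were 1 embryonic stem cell line (ESC), 1 induced pluripotent line made from OG2 MEF with the Tet-4F system (iPSC[MEF]), 4 induced pluripotent clones made from GSC (iPSC[GSC], 2 neonatal and 2 adult) and 4 germline-derived pluripotent clones (gPSC, 2 neonatal and 2 adult). MEF, ESC, iPSC[MEF], neonatal GSC and adult GSC were each a single line. Tests that involve any of them, including every comparison with GSC, borrow their spread between lines from the clone pairs.

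Levels below are background-corrected, quantile-normalised log2 signals from the deposited bead intensities, and differences are differences of these log2 values with their standard errors (SE). Between 9984 and 12081 of the 25697 probes were detected per array, the fewest on the 2 MEF arrays, whose median raw intensities of 134 and 143 exceeded the 89.2 to 103 of the other arrays. Line means of gPSC[GSCneonatal]#2 and iPSC[MEF] correlated at 0.997 over the tested probes, above the next pair of pluripotent lines at 0.989. The 2 arrays of a line correlated at 0.993 to 0.996, which is not like for like, since a line mean averages 2 arrays. The files do not settle whether these labels hold separate lines. The doubt touches iPSC[MEF] as much as gPSC[GSCneonatal]#2, and iPSC[MEF] is the single line behind the comparison with its fibroblast source. Values without each are therefore given beside the main member results they enter, where such a fit exists. Labelled identities were set beside marker genes. All 11 tested germ cell markers were detected on all 4 GSC arrays and 1 or 2 on the MEF arrays. Of 9 tested pluripotency markers, 8 or 9 were detected per pluripotent array, 5 or 6 per GSC array and 1 per MEF array. Their summed linear signal was 21940 to 37365, 1808 to 2962 and 442 to 448 on these arrays. Among the 9, Nanog and Sox2 were detected on all 20 pluripotent arrays and on none of the GSC or MEF arrays. The summed linear signal of 11 fibroblast markers was 19094 and 19768 on the MEF arrays against 1063 to 1410 on the GSC arrays. The summed germ cell signal was 11202 to 12687 on the GSC arrays, but 3549 and 3172 on those of iPSC[GSCneonatal]#1 and 1649 and 1501 on those of gPSC[GSCneonatal]#1, above the 572 to 887 of the other pluripotent arrays.

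RefSeq promoter windows on GRCm38.p6 (250 bases before to 50 after a gene start) were read for 5 of the genes: Epcam, Ocln, Zeb2, Snai1 and Vim. No window of Cdh1, Cdh2, Esrp1, Zeb1 or Snai2 was read, so nothing is said here of E-boxes at Cdh1. Those of Ocln, Snai1 and Vim are shown as examples with and without an E-box. Of the rest, the Epcam window held 2 and the Zeb2 windows none. Capitals mark the E-box letters CAGGTG or CACCTG, the same site read on either strand, which 20.2% of 32851 windows of this length hold. The Ocln window, on the minus strand at chr13:100552449-100552748, belongs to the second of 2 overlapping windows and holds copies beginning 213 and 68 bases before its start. The Snai1 window, on the plus strand at chr2:167537945-167538244, holds 1 copy beginning 126 bases before the start, and the Vim window, on the plus strand at chr2:13574061-13574360, holds none. A match describes letters and not binding.
Ocln: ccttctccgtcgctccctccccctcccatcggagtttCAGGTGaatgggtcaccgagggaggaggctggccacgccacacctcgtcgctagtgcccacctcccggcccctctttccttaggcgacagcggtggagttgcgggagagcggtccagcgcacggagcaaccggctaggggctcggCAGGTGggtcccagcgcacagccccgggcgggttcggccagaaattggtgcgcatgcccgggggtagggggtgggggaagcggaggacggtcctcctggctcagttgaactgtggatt
Snai1: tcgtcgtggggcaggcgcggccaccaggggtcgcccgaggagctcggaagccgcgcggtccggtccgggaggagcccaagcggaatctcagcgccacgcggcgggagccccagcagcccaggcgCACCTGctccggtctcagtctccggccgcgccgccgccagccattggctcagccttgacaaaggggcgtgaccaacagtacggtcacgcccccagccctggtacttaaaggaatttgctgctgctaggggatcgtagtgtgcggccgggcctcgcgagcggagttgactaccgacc
Vim: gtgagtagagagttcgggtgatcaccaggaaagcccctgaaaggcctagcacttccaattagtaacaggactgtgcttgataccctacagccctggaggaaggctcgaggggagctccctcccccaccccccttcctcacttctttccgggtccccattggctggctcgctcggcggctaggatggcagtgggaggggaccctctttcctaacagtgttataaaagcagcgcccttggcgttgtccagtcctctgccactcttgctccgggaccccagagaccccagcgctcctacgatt

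Cdh1 was high in every pluripotent line, weak in GSC and undetected in MEF. Over the 20 pluripotent arrays its level ran from 9.63 through a median of 10.18 to 10.57. The GSC arrays read 5.09 and 5.40 (neonatal) and 5.38 and 5.43 (adult), all detected, and the MEF arrays read 4.58 and 4.48, neither detected. The 3 classes did not overlap in processed signal. Raw intensities ran the other way between GSC (105 to 119) and MEF (130 to 134). The lowest detected signals of the MEF arrays, 5.36 and 5.31, lay within the GSC readings, so detection does not order GSC and MEF. Among pluripotent lines each line mean, from 10.41 in iPSC[GSCneonatal]#1 to 9.78 in gPSC[GSCadult]#2, overlapped its neighbour in arrays. Fewer cells expressing a gene and less RNA per cell cannot be told apart in these bulk samples.

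Cdh2 showed the opposite distribution. Its brightest probe read 6.45 and 6.64 on the MEF arrays and 4.26 to 4.80 on the 24 other arrays, none of which detected it. The remaining 3 probes read 5.73 and 5.88, 5.60 and 5.66, and 5.65 and 5.71 on the MEF arrays, and were likewise detected there alone. Cdh2 signal was thus confined to MEF at this detection limit in all 4 probes, and GSC and pluripotent cells had only an upper bound.

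The epithelial genes other than Cdh1 divided. Esrp1, an RNA-binding protein that sets epithelial splice forms, was undetected on the MEF arrays (4.54 and 4.30) and strong on all others. GSC read 8.99 and 9.08 (neonatal) and 8.70 and 8.71 (adult), ESC 9.40 and 9.54, and the 20 pluripotent arrays 7.61 to 9.54 with a median of 8.37. GSC therefore lay within the pluripotent range for Esrp1 although their Cdh1 was far below it. Ocln encodes occludin, a membrane protein of tight junctions, and its 1 probe was highest on the GSC arrays. These read 5.84, 6.07, 6.02 and 5.81, all detected, whereas MEF read 4.31 and 4.25 and the pluripotent arrays 4.31 to 4.94, with detection on 1 of 20. The summed linear signal of 4 tested testis somatic cell markers was 533 to 701 on GSC, 185 to 555 on pluripotent and 137 to 146 on MEF arrays. Their part in the Ocln signal was not tested.

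Zeb1, Zeb2 and Snai1, repressors of Cdh1, were all highest in MEF. Zeb1 read 8.94 on each MEF array, 7.14, 7.24, 7.35 and 7.14 on the GSC arrays, and 5.95 to 7.21 (median 6.42) on the pluripotent arrays. GSC overlapped the pluripotent range of Zeb1 only at gPSC[GSCadult]#2, whose line mean of 7.17 was followed by 6.67 in gPSC[GSCneonatal]#1. The tested Zeb2 probe read 8.44 and 8.26 in MEF, 4.87, 4.87, 4.53 and 4.62 in GSC (detected on 1 of 4 arrays), and 4.48 to 6.70 (median 5.19) in pluripotent cells (15 of 20 arrays). The tested Snai1 probe read 8.48 and 8.45 in MEF, 6.56, 6.56, 6.71 and 6.99 in GSC, and 5.45 to 7.08 (median 6.35) in pluripotent cells. Thus Zeb1 and Snai1 remained detected on all 20 pluripotent arrays beside high Cdh1, and gPSC[GSCadult]#2 had the highest pluripotent line mean of each of the 3 factors.

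Vim, the vimentin gene, spanned the widest range of the members within pluripotent lines. MEF read 12.76 and 12.73, neonatal GSC 8.58 and 8.59, and adult GSC 7.67 and 7.42. The pluripotent arrays ran from 7.02 through a median of 9.06 to 10.71, with line means lowest in iPSC[GSCneonatal]#1 (7.06) and gPSC[GSCneonatal]#1 (7.66) and highest in gPSC[GSCadult]#2 (10.63), ESC (9.69) and iPSC[GSCneonatal]#2 (9.31). MEF stood above all other arrays, and GSC fell inside the pluripotent range.

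**Figure D1:**
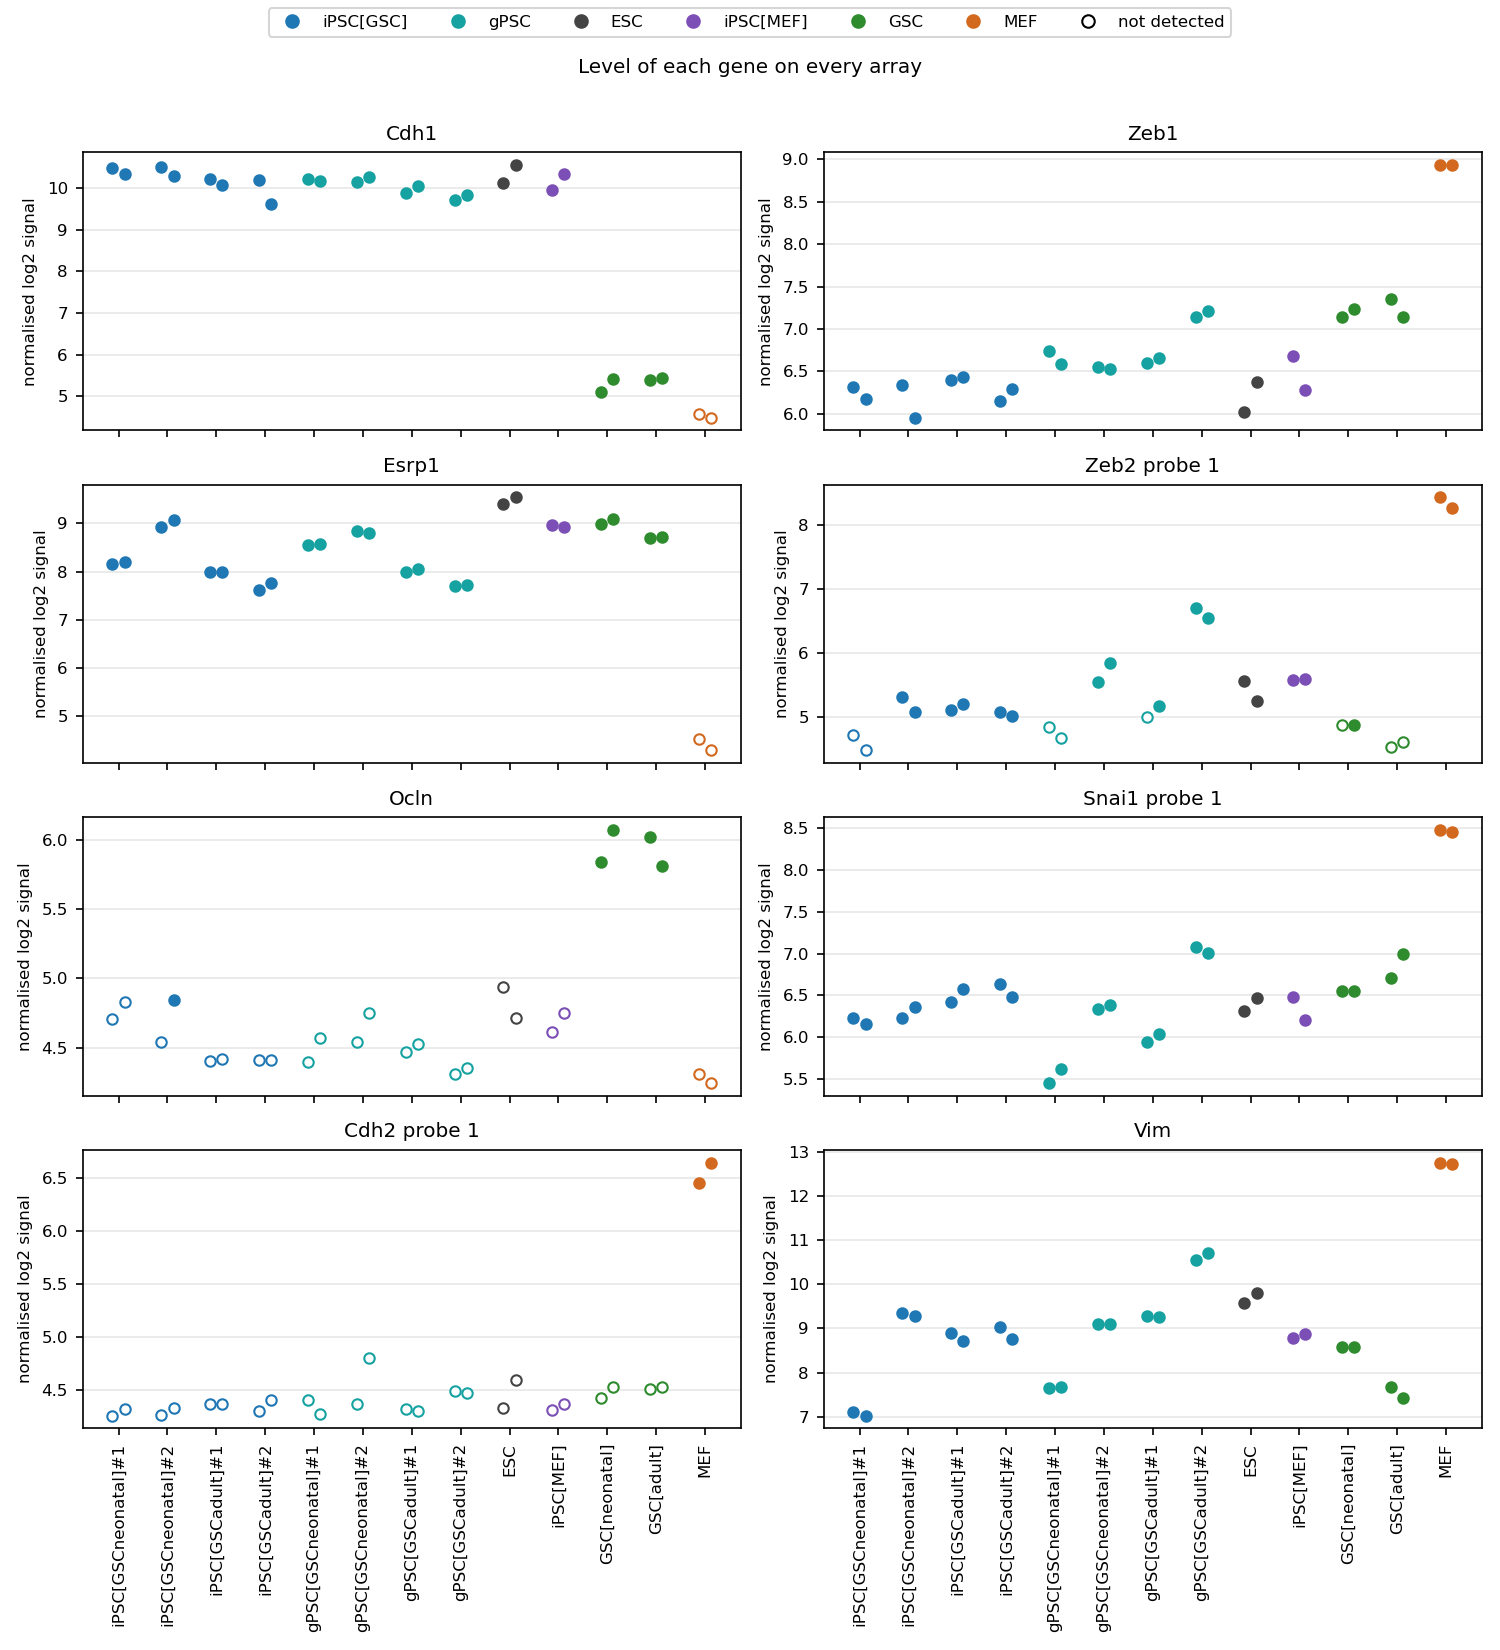
Normalised log2 signal (vertical axes, each with its own range) of 1 probe for each of the 8 genes on all 26 arrays, by line (horizontal axes) and coloured by cell class, with open circles for arrays on which the probe was not detected. Cdh1 separates pluripotent cells (9.63 to 10.57) from GSC and MEF, Ocln peaks in GSC, and Cdh2, Zeb1, Zeb2, Snai1 and Vim peak in MEF.

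Fibroblast reprogramming was addressed by iPSC[MEF] against MEF. Cdh1 and Esrp1 rose, and Cdh2, Zeb1, Zeb2, Snai1 and Vim fell. A probe was called at a limma adjusted p under 0.05, and 10 of 11 member probes were, against 31.4% of all probes tested. Of these, 2 were higher, against 16.1% of all probes, and 8, from 5 genes, lower, against 15.3%. The 4 Cdh2 probes passed the detection filter through the MEF arrays alone and had to differ, so the count is a description. That fit has no counterpart without iPSC[MEF].

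In that comparison Cdh1, which MEF did not detect, was at least 28.0-fold higher (limma adjusted p 2.01e-09), and Esrp1 at least 12.2-fold higher (adjusted p 1.68e-10). Cdh2 was at least 2.87-fold lower by its brightest probe, and its 3 other probes were lower by at least 1.52-fold to 1.72-fold. The cadherin switch is therefore bounded and not measured on its low side for either gene. These bounds hold for the main processing. Across the alternatives the log2 differences ran from 3.55 to 7.44 for Cdh1 and from 2.54 to 6.68 for Esrp1. The brightest Cdh2 probe ran from -4.24 to -0.86, and all of these were called throughout.

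The 3 repressors also fell between MEF and iPSC[MEF]. Zeb1 differed by -2.46 ± 0.39 (limma adjusted p 3.79e-05), Zeb2 by -2.76 ± 0.52 (adjusted p 2.32e-04) and Snai1 by -2.12 ± 0.41 (adjusted p 3.32e-04). Vim differed by -3.91 ± 0.68 (adjusted p 1.13e-04). Ocln, undetected in both, was not called (adjusted p 0.389), except with median scaling (adjusted p 0.000747). Fits on line means or on 1 array per line lost the call for Vim (adjusted p 0.0619 to 0.0698), and some of them for Zeb2 and Snai1.

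Genes of the surrounding pathways were examined in 7 lists, each gene by its brightest detected probe. Of 20 mesenchymal effectors tested, 18 fell and 0 rose in iPSC[MEF] (list median -3.67, also with undetected sides at their bound, all probes 0.07), beside 15.3% of all probes lower. Acta2 (smooth muscle actin) fell by 5.87, Tnc (the matrix protein tenascin C) by 5.01 and Axl (a receptor kinase) by 4.97 on the log2 scale, and Tagln (transgelin) was lower by at least 25.6-fold. Of 13 other EMT transcription factors, 8 fell and 1 rose, with Foxc2 lower by at least 16.7-fold, Twist2 by 4.30 and Prrx1 by 3.07 on the log2 scale.

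The epithelial lists were counted in the same comparison, beside 16.1% of all probes higher and 15.3% lower. Of 14 tight junction and polarity genes, 8 rose and 0 fell, led by the claudins Cldn4 (at least 25.8-fold) and Cldn6 (at least 24.7-fold) and the polarity gene Llgl2 (3.74 ± 0.49). Of 19 other epithelial regulators and surface proteins, 13 rose and 1 fell, including the transcription factors Elf3 (at least 7.28-fold) and Grhl2 (at least 5.39-fold). Of 9 adherens junction genes, 0 rose and 3 fell: Cdh11, a mesenchymal cadherin (at least 3.85-fold), Vcl, vinculin (-1.91 ± 0.37), and Nectin3 (-1.13 ± 0.33). Of 6 desmosome and hemidesmosome genes, Itgb4 alone was called, higher by at least 2.54-fold, a count near the share of all probes. Of 19 TGF-beta and BMP genes, 7 fell and 1 rose, the ligands Tgfb3 (at least 12.9-fold), Tgfb1 (at least 4.34-fold) and Tgfb2 (-2.93 ± 0.57) among the lower.

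**Figure D2:**
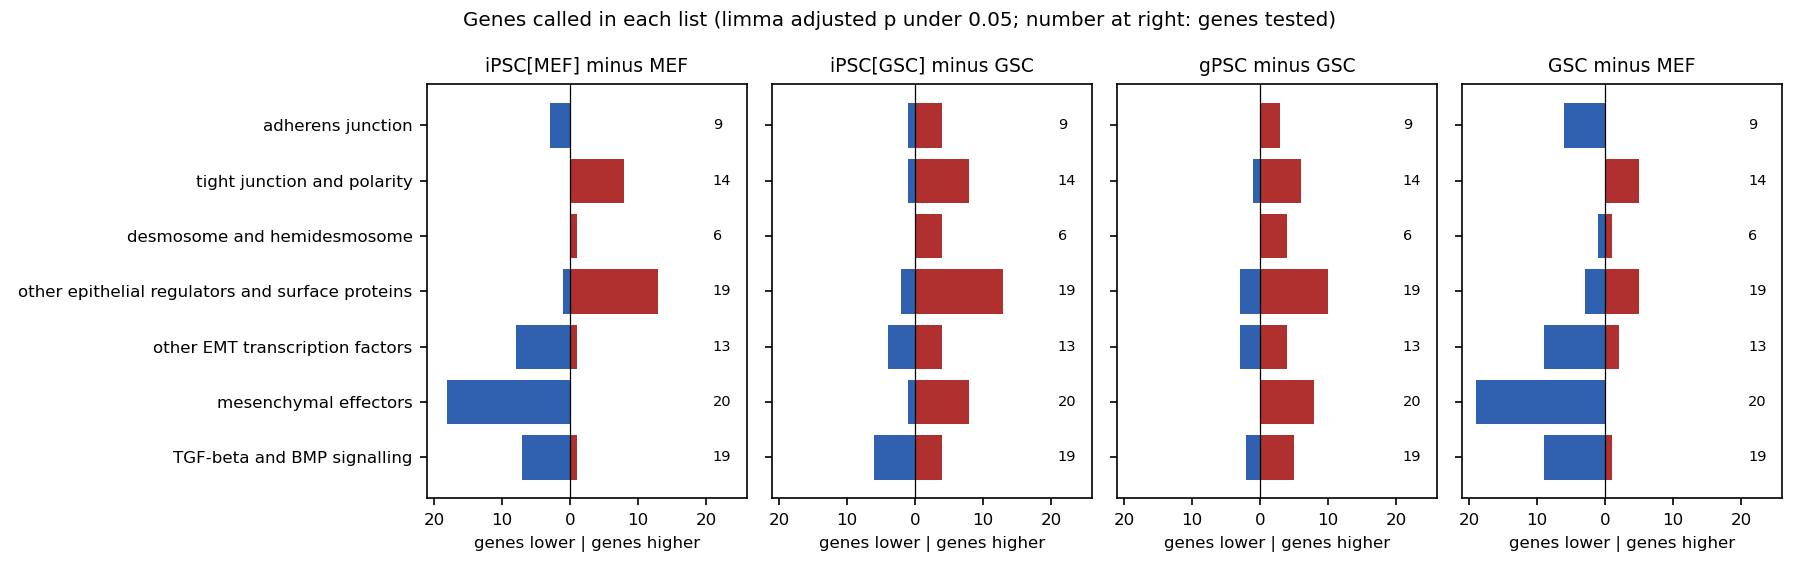
Number of genes called higher (right, red) or lower (left, blue) at a limma adjusted p under 0.05 in each of 7 lists, for 4 comparisons, with the number of genes tested at the right edge. Mesenchymal effectors fell in 18 of 20 genes from MEF to iPSC[MEF], whereas from GSC to iPSC[GSC] 8 of 20 rose and 1 fell.

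GSC were set against MEF to place the germline starting cell. Esrp1 and Ocln were higher than in MEF, and Cdh2, Zeb1, Zeb2, Snai1 and Vim were lower, while Cdh1 did not pass the test. In all, 10 of 11 member probes were called, against 45.3% of all probes, with 2 higher (24.9% of all probes) and 8 lower (20.4%), the 4 Cdh2 probes again tested through MEF alone. Ocln passed the detection filter through GSC, since 1 array of all others detected it, and so had to be higher here. Esrp1 was at least 11.6-fold higher (limma adjusted p 8.54e-12) and Ocln at least 1.52-fold higher (adjusted p 3.11e-05). Zeb2, detected on 1 of 4 GSC arrays, was lower (adjusted p 5.54e-07), its processed signals differing by -3.63 ± 0.45 with the GSC side near background, and Vim differed by -4.68 ± 0.59 (adjusted p 8.10e-07). Zeb1 fell by 1.72 and Snai1 by 1.76 on the log2 scale, and the brightest Cdh2 probe was at least 3.14-fold lower. Across the alternatives the log2 differences ran from 2.48 to 6.60 for Esrp1 and from -3.60 to -0.79 for that Cdh2 probe. Their bounds therefore hold for the main processing only.

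Cdh1 was detected on all 4 GSC arrays and on neither MEF array. The processed signals did not overlap, whereas its raw intensities were higher on the MEF arrays. The lowest detected signals of the MEF arrays, 5.36 and 5.31, lay beside the GSC mean of 5.33, so the data give no bound on the size of this difference, and limma did not call it (adjusted p 0.106). It was called in 6 of 19 alternatives, among them the authors' deposited matrix (adjusted p 0.00452) and median scaling (adjusted p 0.000625). Among the lists, beside 24.9% of all probes higher and 20.4% lower, 19 of 20 mesenchymal effectors and 9 of 13 other EMT factors were lower in GSC than in MEF, 5 of 14 tight junction genes were higher and 0 lower, and 6 of 9 adherens junction genes were lower.

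Comparisons with MEF shifted as a whole with the scaling. The median of all probes for iPSC[MEF] minus MEF was 0.07, but 0.12 in the authors' matrix and 0.43 with median scaling. The share of called probes that were higher was 51.2%, and 66.8% with median scaling. The corresponding shares were 55.0% and 65.1% for GSC minus MEF, and 52.2% and 68.6% for pluripotent lines minus MEF. For iPSC[MEF] minus MEF the values under median scaling were -2.57 for Zeb1, -2.79 for Zeb2, -2.20 for Snai1 and -4.17 for Vim, and Cdh1 and Esrp1 stayed above and the Cdh2 probes below the shifted median.

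All 10 pluripotent lines together were also set against MEF, which adds 9 lines not made from it. Again 10 of 11 member probes were called, against 42.7% of all probes, with 2 higher (22.3%) and 8 lower (20.4%), of which the 4 Cdh2 probes, detected in MEF alone, had to be lower. Cdh1 was at least 28.5-fold higher (limma adjusted p 4.09e-12) and Esrp1 at least 9.38-fold higher (adjusted p 1.58e-12). Those bounds hold for the main processing, and across the alternatives the log2 differences ran from 3.58 to 7.47 and from 2.25 to 6.27. Zeb1 differed by -2.49 ± 0.29, Zeb2 by -3.00 ± 0.38, Snai1 by -2.14 ± 0.31 and Vim by -3.76 ± 0.51, and every pluripotent array lay below both MEF arrays for these 4 genes. Without iPSC[MEF] the differences were -2.49 for Zeb1, -3.05 for Zeb2, -2.14 for Snai1 and -3.73 for Vim, and without gPSC[GSCneonatal]#2 they were -2.48, -3.08, -2.21 and -3.88. Cdh1 and Esrp1 were called in both of these fits (adjusted p 4.49e-12 to 8.36e-12).

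Conversion of GSC to pluripotency was addressed by iPSC[GSC] and gPSC, each against the same 2 GSC lines, so the comparisons share their controls. Cdh1 rose in both, Ocln and Esrp1 fell, and Cdh2 stayed below detection throughout. In iPSC[GSC], 4 of 11 member probes were called, against 47.2% of all probes, with 1 higher (22.0% of all probes) and 3 lower (25.3%). In gPSC, 5 of 11 were called, against 45.4%, with 3 higher (20.4%) and 2 lower (25%). These counts are near or below the background shares and are no result about the members as a group.

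Cdh1 was higher by 4.89 ± 0.28 in iPSC[GSC] (29.7-fold, limma adjusted p 7.90e-13) and by 4.71 ± 0.28 in gPSC (26.2-fold, adjusted p 1.85e-12). The GSC arrays, at 5.09 to 5.43, lay close to their lowest detected signals of 4.81 to 5.01, so these sizes depend on the processing. Over the alternatives they ran from 3.39 to 5.79 in iPSC[GSC] and from 3.22 to 5.61 in gPSC, called throughout. Ocln was lower in iPSC[GSC], where 1 of 8 arrays detected it (adjusted p 3.67e-06), and at least 1.86-fold lower in gPSC, where none did (adjusted p 1.82e-06). It passed the detection filter through GSC and so had to be lower in the clones. Esrp1 differed by -0.66 ± 0.20 in iPSC[GSC] (adjusted p 0.00753) and by -0.59 ± 0.20 in gPSC (adjusted p 0.0157). GSC and clone means of Esrp1 overlapped, and both Esrp1 calls were lost in the authors' matrix (adjusted p 0.0866 and 0.128) and on line means. Without iPSC[GSCneonatal]#1, the pluripotent line with the highest germ cell marker sum, the iPSC[GSC] difference for Esrp1 was -0.45 (adjusted p 0.0521), and the part of those markers was not tested. Without gPSC[GSCneonatal]#2 the gPSC differences were 4.71 for Cdh1 (adjusted p 1.21e-11) and -0.66 for Esrp1 (adjusted p 0.0118).

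The repressors and Vim moved little or unevenly from GSC to the clones. Zeb1 differed by -0.96 ± 0.24 in iPSC[GSC] (limma adjusted p 0.00194) and differed by -0.46 ± 0.24 in gPSC (adjusted p 0.12). Without gPSC[GSCadult]#2 the gPSC difference for Zeb1 was -0.60 (adjusted p 0.0375), and without gPSC[GSCneonatal]#2 it was -0.43 (adjusted p 0.164). Snai1 differed by -0.32 ± 0.25 and -0.47 ± 0.25 and was not called in either. Zeb2 rose by 0.82 ± 0.32 (adjusted p 0.0379) and Vim by 1.10 ± 0.42 (adjusted p 0.0351) in gPSC. The GSC side of this Zeb2 difference, detected on 1 of 4 arrays, lay near background, so its size is not measured.

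The gPSC calls for Zeb2 and Vim were lost when either of 2 clones was left out and under several fits with all clones. Without gPSC[GSCadult]#2 the differences were 0.43 for Zeb2 (limma adjusted p 0.187) and 0.76 for Vim (adjusted p 0.151), and without gPSC[GSCneonatal]#2 they were 0.58 (adjusted p 0.128) and 0.74 (adjusted p 0.156). With all clones kept, the calls were lost on line means (adjusted p 0.223 for Zeb2 and 0.284 for Vim) and on 1 array per line (adjusted p 0.22 to 0.308). Vim also missed the threshold in the authors' matrix (adjusted p 0.0573) and with no detection filter (adjusted p 0.0557), and Zeb2 with no background correction (adjusted p 0.0693). The Zeb2 value of 0.82 likewise missed the threshold when iPSC[GSCadult]#1 or iPSC[GSCadult]#2 was left out of the shared spread (adjusted p 0.0515 and 0.0525). Snai1 became lower in gPSC without either clone, by -0.73 (adjusted p 0.0096) and -0.68 (adjusted p 0.0272). In iPSC[GSC], Vim differed by 0.45 ± 0.42 (adjusted p 0.405), and by 1.02 (adjusted p 0.021) without iPSC[GSCneonatal]#1, the line of the high germ cell sum.

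**Figure D3:**
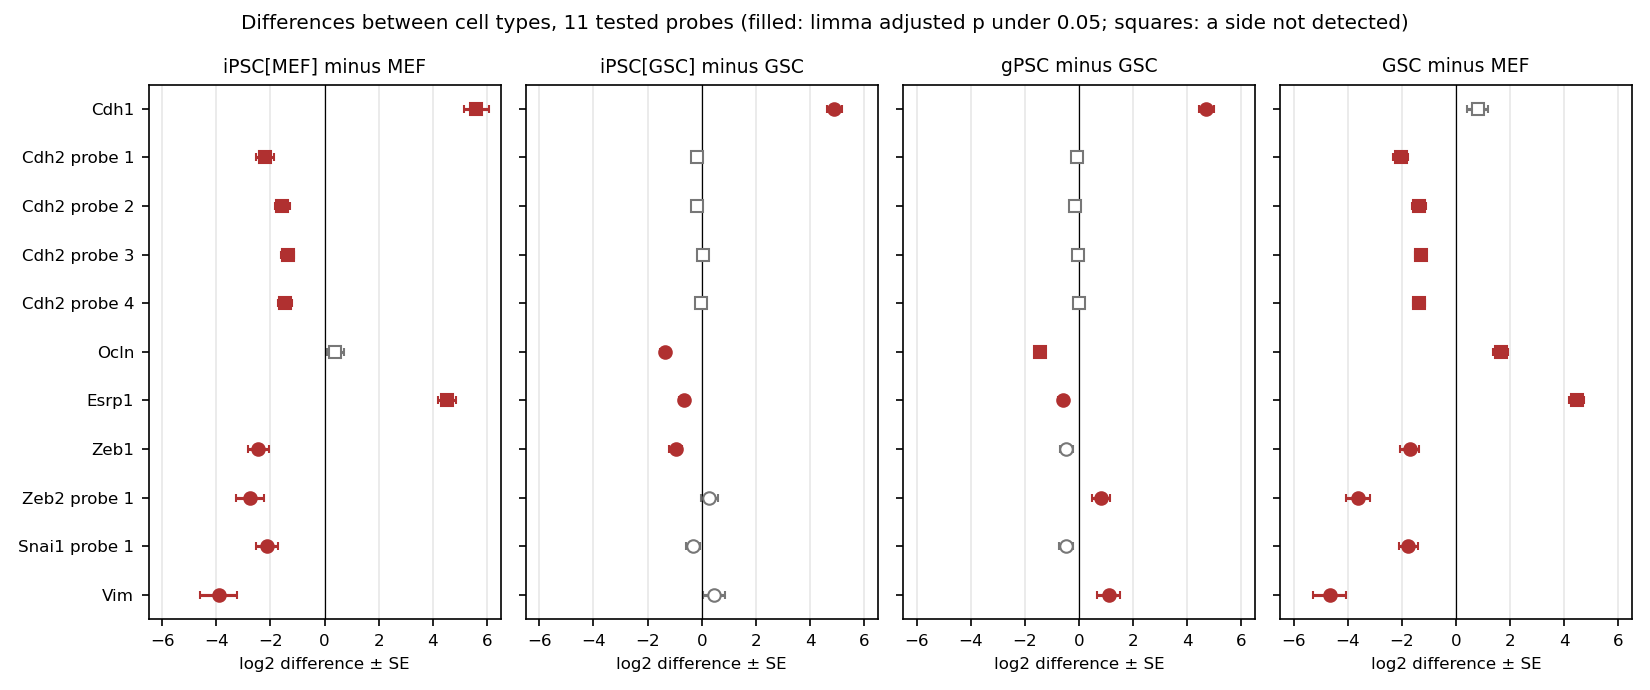
Log2 difference ± SE for the 11 tested probes in 4 comparisons, filled where the limma adjusted p was under 0.05. Squares mark differences in which 1 or both sides were not detected, whose size is not measured. Cdh1 rose by 4.89 and 4.71 from GSC to iPSC[GSC] and gPSC, whereas Cdh2 and Snai1 were called lower against MEF and not called against GSC. Vim was called lower against MEF and, in gPSC alone, higher against GSC (1.10).

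From GSC to iPSC[GSC] the list counts stand beside 22.0% of all probes higher, 25.3% lower and 47.2% called. Of 14 tight junction and polarity genes 8 rose and 1 fell, with Cldn4 at least 66.2-fold higher, Cldn6 higher by 4.52 ± 0.17 and Llgl2 by 2.79 ± 0.30. Of 9 adherens junction genes 4 rose and 1 fell, a number of calls near the share of all probes, among them Nectin2 (2.59 ± 0.25), the placental cadherin Cdh3 (at least 3.68-fold) and Ctnna1, alpha-catenin, which links cadherins to actin (1.01 ± 0.19). Of 6 desmosome and hemidesmosome genes 4 rose, including the plakophilins Pkp2 (2.28 ± 0.27) and Pkp3 (at least 2.23-fold) and the integrin Itga6 (1.45 ± 0.24).

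Other epithelial regulators rose in 13 of 19 genes and fell in 2, with Elf3 at least 25.9-fold higher, the simple-epithelium keratin Krt8 higher by 4.31 ± 0.44 and Klf5 by 4.31 ± 0.23. Of 20 mesenchymal effectors 8 rose and 1 fell (list median 0.46, or 0.25 with undetected sides at their bound, all probes -0.02), among them Acta2 (2.39 ± 0.34), the matrix protein Sparc (1.96 ± 0.44) and Itga5, a fibronectin receptor subunit (1.87 ± 0.21). Of 13 other EMT factors 4 rose and 4 fell, Foxc2 by -2.84 ± 0.23. Of 19 TGF-beta and BMP genes 4 rose and 6 fell, again near the share called of all probes, with Id2 at least 9.24-fold higher, Skil higher by 1.76 ± 0.26 and Bmp4 by 1.67 ± 0.32.

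In gPSC against GSC, beside 20.4% of all probes higher and 25% lower, 6 of 14 tight junction genes rose and 1 fell, 10 of 19 other epithelial regulators rose and 3 fell, and 8 of 20 mesenchymal effectors rose and 0 fell. Of 13 other EMT transcription factors 4 rose and 3 fell, a number of calls near the 45.4% of all probes. Tcf4 (2.00 ± 0.20) and Gsc, goosecoid (at least 2.45-fold), were among the higher.

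The interaction of starting cell tested whether the change from MEF to iPSC[MEF] differed from that from GSC to iPSC[GSC]. This contrast equals GSC minus MEF plus iPSC[MEF] minus iPSC[GSC], so it is not independent of the GSC and MEF differences given above. It also uses iPSC[MEF], whose label is in doubt, and has no fit without that line. It was called for 10 of 11 member probes, against 33.2% of all probes, with 2 above 0 (18.0% of all probes) and 8 below (15.2%), and Cdh1 was the member not called. The 4 Cdh2 probes were tested through MEF alone and Ocln through GSC alone, which fixed their part in this count. The interaction was -4.36 ± 0.80 for Vim (limma adjusted p 1.88e-04), -3.04 ± 0.61 for Zeb2 (adjusted p 4.22e-04), -1.80 ± 0.48 for Snai1 (adjusted p 0.00545) and -1.50 ± 0.46 for Zeb1 (adjusted p 0.0137). For Cdh1, Esrp1, Ocln and Cdh2 at least 1 of the cell types was below detection, so the interaction has a call but no measured size. The same holds for Zeb2, which was detected on 1 of 4 GSC arrays and on neither adult GSC array. Esrp1 was called (adjusted p 4.60e-10). Cdh1 was not (adjusted p 0.336), except in the authors' matrix (adjusted p 0.0497) and with median scaling (adjusted p 0.0109). On line means or on 1 array per line the Vim and Snai1 interactions were not called (adjusted p 0.062 to 0.127), and Zeb1, Zeb2 and the second Cdh2 probe each missed the threshold in 1 or 2 alternatives (adjusted p 0.0544 to 0.0755).

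GSC against ESC gave 4 of 11 member probes called, against 32.7% of all probes, with 2 higher (17.4%) and 2 lower (15.3%). Cdh1 differed by -5.01 ± 0.39 (limma adjusted p 9.37e-10), and by -5.91 to -3.50 over the alternatives. Ocln, tested through GSC alone and so fixed to be higher, was at least 2.00-fold higher (adjusted p 0.00321), and Zeb1 was higher by 1.02 ± 0.34 (adjusted p 0.0226), or 0.82 (adjusted p 0.0856) without replicate 1. Vim differed by -1.63 ± 0.59 (adjusted p 0.0373), a call lost on line means (adjusted p 0.308) and in the authors' matrix (adjusted p 0.0612). Between the adult and neonatal GSC lines limma called 0 of 11 member probes and 2 of all probes (0.0138%), with 84 at an unadjusted p under 0.05. The Vim difference was -1.04 ± 0.68, although its arrays did not overlap (7.42 and 7.67 adult, 8.58 and 8.59 neonatal). Each side is a single line with borrowed spread, so the lack of calls does not show that the lines are alike.

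Pluripotent lines were compared among themselves. The 9 reprogrammed lines differed from ESC for 1 of 11 member probes, against 0.710% of all probes (0.448% lower): Esrp1 differed by -1.08 ± 0.24 (limma adjusted p 0.0277), with ESC above every other line. That call was lost in the authors' matrix (adjusted p 0.429), on line means (adjusted p 0.986), on 1 array per line and with detection on at least 13 arrays. Without iPSC[MEF] the Esrp1 difference was -1.22 (adjusted p 0.0123), and without gPSC[GSCneonatal]#2 it was -1.11 (adjusted p 0.0177). Cdh1 differed by -0.21 ± 0.34 (95% interval -0.91 to 0.49). Of called probes 36.9% were higher, and 52.7% in the authors' matrix.

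Between the 4 iPSC[GSC] and the 4 gPSC clones limma called 0 of 11 member probes and 0 of all probes (0%), with 724 at an unadjusted p under 0.05 and 9 called when the replicate number was fitted as a block. Zeb1 was the member whose clone means did not overlap, as for 3.09% of all probes: iPSC[GSC] stood at 6.15, 6.22, 6.25 and 6.42 and gPSC at 6.54, 6.62, 6.67 and 7.17, a difference of -0.49 ± 0.15 (unadjusted p 0.0165, adjusted p 0.757), or -0.52 without gPSC[GSCneonatal]#2. The interval for Cdh1, 0.18 ± 0.11, was -0.09 to 0.45.

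Between adult and neonatal origin 0 of 11 member probes and 0% of all probes were called, with 706 at an unadjusted p under 0.05 and 13 with the replicate block. Esrp1 and Cdh1 had clone means that did not overlap, as had 2.36% of all probes. For Esrp1 the neonatal clones stood at 8.18, 8.56, 8.82 and 8.99 and the adult clones at 7.69, 7.71, 7.99 and 8.02, a difference of -0.78 ± 0.21 (unadjusted p 0.00892, limma adjusted p 0.75). For Cdh1 the neonatal clones stood at 10.20, 10.21, 10.41 and 10.41 and the adult clones at 9.78, 9.91, 9.97 and 10.15, a difference of -0.35 ± 0.11 (unadjusted p 0.0184, adjusted p 0.75). Neither passed the test over all probes. The SE and p-values take clones as the units. All clones of an origin share their parent GSC line, so age of origin cannot be told apart from that line. Without gPSC[GSCneonatal]#2 the differences were -0.72 for Esrp1 (adjusted p 0.28) and -0.35 for Cdh1 (adjusted p 0.299).

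Fibroblast markers varied together with Vim and Zeb2 among pluripotent arrays. The summed signal of the 11 markers was 387 and 443 in iPSC[GSCneonatal]#1, whose Vim was lowest, and 9353 and 9439 in gPSC[GSCadult]#2, whose Vim, Zeb1, Zeb2 and Snai1 were highest. Over the 20 pluripotent arrays it ran from 387 to 9439, with 2497 and 2598 in iPSC[MEF] and 2062 and 2151 in ESC. All 11 markers were detected on both arrays of gPSC[GSCadult]#2 and 4 to 9 on the others. Col1a1, Col5a1 and Dcn were detected on all 20 pluripotent arrays and all 4 GSC arrays, Fap on 2 of 20 and none of the GSC arrays, and Pdgfrb on 4 of 20. Their part in the Vim, Zeb1, Zeb2 and Snai1 differences was not tested.

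**Figure D4:**
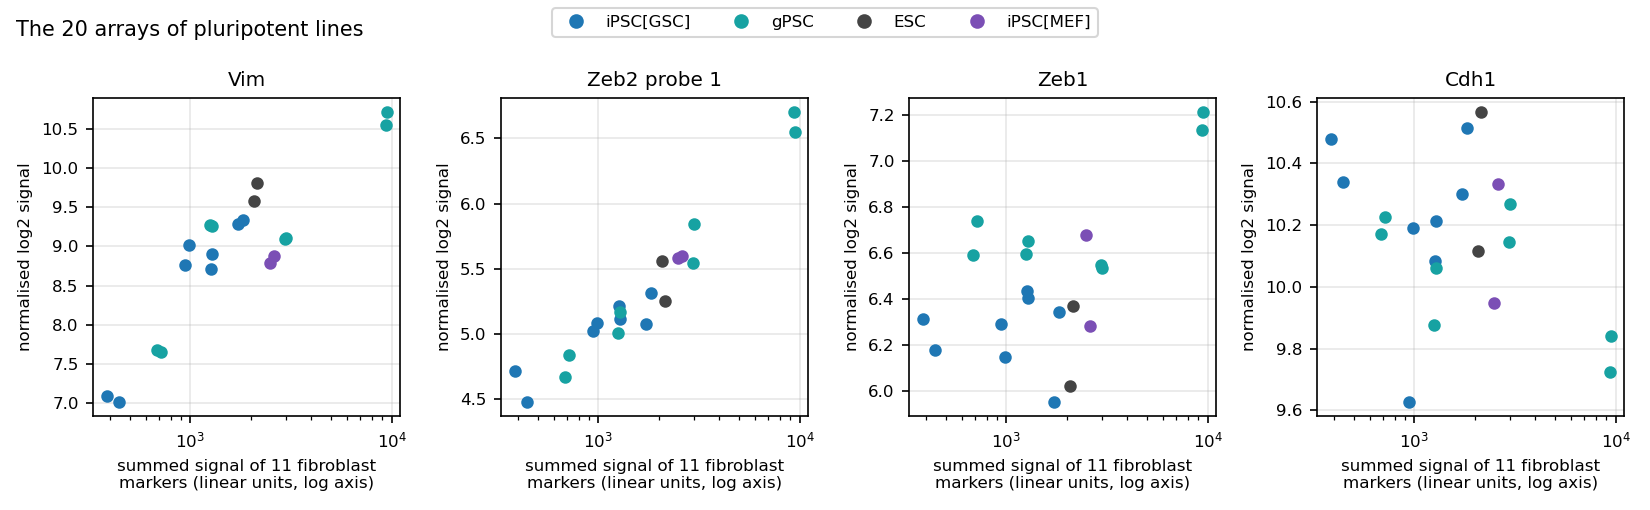
Normalised log2 signal of Vim, Zeb2, Zeb1 and Cdh1 (vertical axes) against the summed linear signal of 11 fibroblast markers (horizontal log axes) on the 20 pluripotent arrays, coloured by class, with the 2 arrays of a line as separate points. The 2 gPSC[GSCadult]#2 arrays lie far right at 9353 and 9439, with Vim at 10.55 and 10.71.

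Genes whose 13 line means followed those of a member most closely were listed among 7260 genes with a range of at least 1. For Cdh1 they were Apoe (Pearson r 0.994), Ooep (0.992), Hmgxb4 (0.992), Dnmt3l (0.991) and the pluripotency factor Nanog (0.990). For Vim they were Rab8b (0.978), Ext1 (0.964), Pcyt1a (0.962), Col16a1 (0.959) and Inhba (0.959). For the brightest Cdh2 probe they were Kazald1, Kcnab1, Adam12, Sec16b and Vamp5 (0.990 to 0.992), each of which, like Cdh2, had its highest class mean in MEF. These values describe 13 lines of few cell classes and share the gap between those classes.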

How the data were processed

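RNA of 13 mouse lines (26 samples, 2 per line) was measured on Illumina bead arrays. The authors deposited bead intensities and a detection p-value per probe, not normalised, and a matrix of log2 values. Per the submitters' processing notes BeadStudio 3.2, RMA and lumi were used, with no order given. The genome build is not given in the sources used here, and the file headers name no batch.

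From the deposited intensities, limma 3.58.1 (statmod 1.5.0, R 4.3.3) removed background estimated through the detection p-values (neqc, offset 16), then quantile-normalised and took log2. The fit used 14517 of 25697 probes, those with detection below 0.01 on 2 or more arrays, over 26 arrays in 9 cell types, with line as a random block (consensus correlation 0.788), and clone contrasts were fitted on 8 clone means. P-values were adjusted over all tested probes by Benjamini-Hochberg, and the call threshold was 0.05. The number of arrays and lines limits the precision. The p-values of single-line cell types assume the spread of the clone pairs.

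Probe names came from the platform annotation, updated by Entrez identifier (23962 probes) or accession (9 probes) with RefSeq on GRCm38.p6. The 1719 probes with no symbol were fitted but not named. A fold against an undetected side is a bound, taken against the lowest signal among detected probes on each array and written as at least. Such a bound holds for the main processing and not for every alternative. Groups follow the sample titles. 1 adult GSC sample carries the other replicate number in its description. Same-numbered arrays of different lines did not deviate together (correlation -0.17 to 0.41, median 0.01, over 78 pairs of lines), so the numbers were not treated as pairs.

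Members and lists were chosen with earlier results of these data known. All member probes are reported. Of each list up to 4 genes called in iPSC[MEF] minus MEF and up to 3 in the comparisons of clones with GSC were named, by size of difference among genes whose groups did not overlap, and for likeness the 5 genes with the highest Pearson correlation. Alternatives were no background correction, the authors' matrix, median scaling, other detection filters, 1 probe per gene, line means, a replicate block and leaving out replicates or lines. The fits were tested on simulated data.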

Additional observations from a re-analysis of the deposited data

Results flagged for a closer look

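Zeb1 in gPSC[GSCadult]#2 had a line mean of 7.17, apart from the 9 other pluripotent lines, of which the next highest was 6.67. The gap was 0.495 of the range of the 10 lines. It was the only such value in 33 groups of 4 to 10 samples examined, a screen in which about 1 in 20 groups is picked out by chance. The fibroblast markers were highest on the same arrays.

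The change from MEF to iPSC[MEF] differed from that from GSC to iPSC[GSC] by the interaction test of limma for 10 of 11 member probes. This contrast contains the GSC minus MEF difference, which was -4.68 for Vim, -3.63 for Zeb2, -1.76 for Snai1 and -1.72 for Zeb1. It is therefore no separate result, and it also uses iPSC[MEF], whose label is in doubt. The difference between the 2 changes was -2.03, -1.37, -1.39 and -1.42 for the 4 Cdh2 probes, 1.77 for Ocln, 5.18 for Esrp1, -1.50 for Zeb1, -3.04 for Zeb2, -1.80 for Snai1 and -4.36 for Vim. For Cdh2 the GSC side was undetected before and after and iPSC[MEF] was undetected, for Ocln both MEF and iPSC[MEF] were undetected, and for Esrp1 MEF was undetected, so those sizes rest on background signal and are not measured. Zeb2 was detected on 1 of 4 GSC arrays, so its size also rests in part on background signal. The Cdh2 probes were tested through MEF alone and Ocln through GSC alone.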

How the results depend on the processing

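No member difference changed direction as a called value under the 15 to 19 alternatives run for each. Counts of all probes called moved by over 1.5 times as follows. For iPSC[MEF] minus MEF, 4557 became 6977 with median scaling, 2607 on line means and 2417 to 5213 without a replicate or clone. For GSC minus ESC, 4744 became 2888 to 5408 without a replicate or clone. For the interaction, 4821 became 3138 on line means and 2704 to 5511 without a replicate or clone. For reprogrammed lines against ESC, 103 became 55 in the authors' matrix, 410 with no detection filter, 40 with detection on at least 13 arrays, 60 with 1 probe per gene, 12 on line means, and 8 to 210 when replicates or clones were left out (8 without replicate 1, 10 without replicate 2, 157 without gPSC[GSCneonatal]#1 and 210 without gPSC[GSCadult]#1). For adult against neonatal GSC, 2 became 4 with no background correction, 1 in the authors' matrix, with median scaling and with 1 probe per gene, 13 with no detection filter, 0 with the stricter filter and on line means, and 0 to 3 without a replicate or clone.

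Member probes called fell from 10 to 6 (iPSC[MEF] minus MEF and pluripotent minus MEF) or 5 (GSC minus MEF and the interaction) with detection on at least 13 arrays, where the Cdh2 and Ocln probes were not tested. For gPSC minus GSC, 5 became 3 in the authors' matrix, 2 on line means, and 2 to 5 without a replicate or clone. For GSC minus ESC, 4 became 2 to 4, for iPSC[MEF] minus MEF 8 to 10, and for the interaction 7 to 10 without a replicate or clone. For reprogrammed lines against ESC, 1 became 0 in the authors' matrix, with the stricter filter, on line means and without either replicate. With the replicate number as a block, 0 became 9 probes for iPSC[GSC] minus gPSC and 13 for adult minus neonatal origin, and no member call changed. Cdh1 in iPSC[MEF] minus MEF was called in all 18 of its alternatives (adjusted p at most 4.73e-04). The batch alternative was not run, since the headers name none. Where other values moved, the cause was not tested. Signals near background have only a bound.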
